A study of Rattus norvegicus with 20 samples.

Results

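The comparison set 4 soleus libraries of rats that walked in shallow water after a spinal cord contusion against 4 soleus libraries of uninjured rats, 8 of the 20 libraries in the series. Members were taken by their column labels, the contusion libraries with shallow water walking numbered 1 to 4 and the uninjured libraries numbered 1 to 4. All were Sprague-Dawley rats, and RNA was read by poly-A sequencing. The walking group had a moderately severe contusion of 25 g-cm at T2, the upper thoracic cord, and walked on 5 days a week for 10 weeks from 2.5 weeks after injury. The other groups used below for direct tests were rats with the same contusion that swam on the same schedule, rats with the same contusion and no exercise, and rats with a complete transection at T2, again 4 libraries each. The uninjured group had no cord injury and no exercise. According to the design text, all animals moved after 4 days to small cages that restricted movement, which the groups therefore share. Muscle was taken at a labelled 13.5 weeks in the walking and swimming groups, 8.5 weeks after transection, 11.5 weeks in the contusion group and 11.5 weeks in the uninjured group. Injury, exercise and labelled time cannot be told apart between walking and uninjured rats.

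The soleus is a slow muscle of the calf that holds posture against gravity and is made mostly of oxidative fibres. Injury of the thoracic cord leaves the motor neurons of the hind limb in place but removes much of their descending drive, so the muscle loses activity and load without losing its nerve. Loss of load is known in rodents to shrink soleus fibres and to move them toward faster contractile proteins and glycolytic metabolism. Walking in shallow water lets the water bear part of the body weight while the paws still touch ground.

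The deposited table names genes by Ensembl identifier only. None of the 24613 identifiers could be paired with a symbol from the gene table used here, which held an Ensembl identifier for 0 of 47357 genes. Slow muscle markers could therefore not be read to check the tissue label, and no function is given for any gene below. Identifiers are printed for the 2 genes that rose most and the 2 that fell most under the naming rule, and for 2 genes that mark other comparisons of the study. In whole muscle, fewer cells of a type and less RNA per cell cannot be told apart.

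Total counts ran from 21445449 to 36604027 in walking libraries and from 26195066 to 39729930 in uninjured libraries. The first principal component of the 8 libraries held 32.3% of the variance, with walking libraries between 4.39 and 37.2 and uninjured libraries between -44.1 and -5.16, so the groups did not overlap on it. Between the groups, walking library 4 and uninjured library 2 were the nearest pair on this component alone, and walking library 1 and uninjured library 4 the farthest. The share of counts in the 50 genes with most reads was 47.2 ± 2.01% after walking and 45.5 ± 1.15% in uninjured muscle (SD, n = 4 each; exact two-sided permutation p = 0.171, where 0.0286 is the smallest possible). Thinned to the smallest library, 15375 ± 274 genes would keep a count after walking and 15342 ± 121 in uninjured muscle (SD, n = 4 each; exact two-sided permutation p = 0.914). Neither test passed over the 4 libraries of each group. Without walking library 1, which stood at 44.3%, the difference in the 50-gene share was 2.70 percentage points, against 1.74 with it. The other walking libraries, at 47.3%, 48.5% and 48.7%, lay above every uninjured library (exact two-sided permutation p = 0.0571, the smallest possible for 3 against 4). Walking library 1 was the only walking library within the uninjured range, so this separation follows from leaving it out. With any other of the 8 libraries left out the difference was 1.21 to 2.13 points (exact permutation p = 0.171 to 0.343). With all libraries, the shares of the 10 and 200 most abundant genes differed by 0.610 and 1.54 points (exact permutation p = 0.571 and 0.229).

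Walking muscle differed from uninjured muscle at 62 of 13398 genes tested, of which 22 rose and 40 fell (edgeR quasi-likelihood test, Benjamini-Hochberg adjusted p below 0.05). The share of tested genes called was 0.463%, made up of 0.164% higher and 0.299% lower. Of the genes that rose, 12 passed 2-fold and 3 passed 4-fold, with a median log2 fold change of 1.17 and a range of 0.41 to 5.14. Of those that fell, 25 passed 2-fold and 3 passed 4-fold, with a median of -1.11 and a range of -3.80 to -0.51. The median of all tested genes was 0.02. In all 62 called genes the 4 walking libraries lay on 1 side of the 4 uninjured libraries. The genes were called on these same libraries, so that largely follows from the choice of genes. Of all tested genes, 9.50% had no overlap between the groups, 4.41% higher and 5.09% lower.

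The number of genes called rested on single libraries and on the fit. It was 10, 46, 5 or 30 without walking library 1, 2, 3 or 4, and 14, 75, 70 or 7 without uninjured library 1, 2, 3 or 4. A mean of at least 1 CPM gave 67 genes, the replicate number as a block 68 and no robust shrinkage 66. The number called was 59 with median of ratios scaling, 57 with library totals as the only scaling and 41 without the low-count filter. It was 142 with the walking and uninjured libraries alone, 318 without transection library 3 and swimming library 2, libraries doubted on earlier results of these data, 375 with the Wald test of DESeq2 and 388 with voom in limma. At an unadjusted p under 0.05 there were 1826 genes, 13.6% of those tested.

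**Figure D1:**
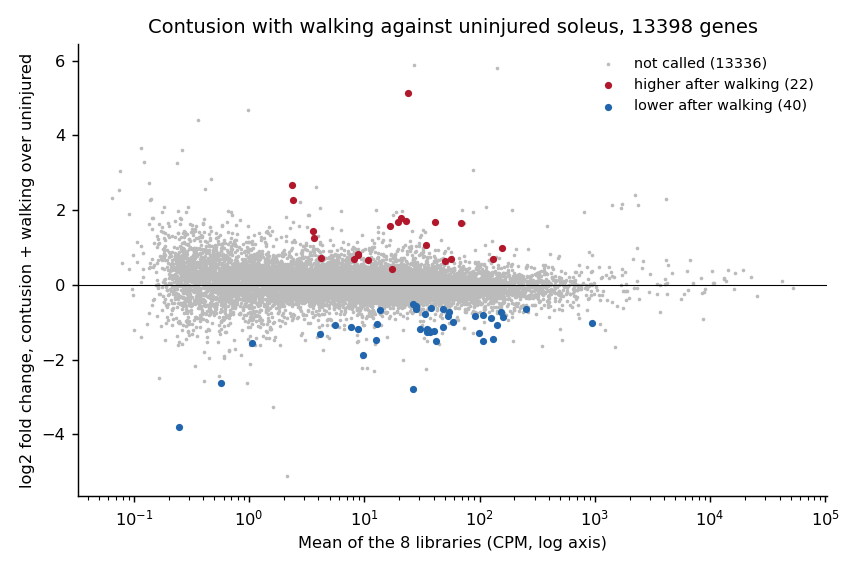
Each point is a gene: the horizontal axis is its mean over the 8 libraries in CPM (counts scaled per library, log axis) and the vertical axis is the log2 fold change, walking over uninjured. The 22 called higher genes (red) and 40 called lower genes (blue) lie among uncalled genes of equal or larger fold change (grey).

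ENSRNOG00000013552 had the highest fold change among called genes. It stood at 27.0, 38.6, 98.7 and 21.1 CPM, the count scaled to a common library size by the trimmed mean of M values, in walking libraries 1 to 4, against 0.567, 2.60, 1.23 and 0.662 CPM in uninjured libraries 1 to 4. Every walking library lay above every uninjured library, and walking library 3 stood highest. The means were 46.4 ± 35.7 CPM after walking and 1.26 ± 0.936 CPM in uninjured muscle (SD, n = 4 each). This was a log2 fold change of 5.14 (SE 0.98, edgeR adjusted p = 0.0313). The call was lost without the low-count filter (edgeR adjusted p = 0.0548), and without walking library 1 or 3 or uninjured library 1, 3 or 4 (0.0585, 0.115, 0.101, 0.0650 and 0.144). In those fits the log2 fold change stayed between 4.46 and 5.31. In the other groups the same gene ranged from 10.6 to 248 CPM after swimming, 2.95 to 11.9 CPM after contusion alone and 6.80 to 17.8 CPM after transection. Walking libraries lay above all contusion and transection libraries, though neither direct test passed (log2 differences of 2.45 and 2.05, edgeR adjusted p = 1.00 and 0.0922).

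ENSRNOG00000031211 was low in uninjured muscle and rose after walking. Its levels were 5.25, 2.36, 5.51 and 3.29 CPM in walking libraries 1 to 4, against 0.390, 0.795, 0.683 and 0.631 CPM in uninjured libraries 1 to 4. The groups did not overlap, and walking library 2 was the lowest of its group. The 4 walking libraries together held 424 counts and the 4 uninjured libraries 90 counts. Means were 4.10 ± 1.53 CPM after walking and 0.625 ± 0.171 CPM in uninjured muscle (SD, n = 4 each). Their log2 fold change was 2.68 (SE 0.42, edgeR adjusted p = 7.68e-03). It was called in every alternative fit, with a log2 fold change of 2.43 to 2.87 and adjusted p of 2.00e-07 to 0.0468. Its level ranged from 3.03 to 6.39 CPM after swimming, 2.22 to 3.22 CPM after contusion alone and 0.893 to 5.47 CPM after transection. Against each of these groups the walking libraries overlapped, and no direct test passed (edgeR adjusted p = 0.698, 1.00 and 0.556).

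ENSRNOG00000001736 had the lowest fold change under the naming rule. It stood at 5.48, 11.6, 2.45 and 7.01 CPM in walking libraries 1 to 4, against 58.8, 30.7, 37.8 and 58.0 CPM in uninjured libraries 1 to 4. The highest walking library lay well below the lowest uninjured one, and uninjured libraries 1 and 4 were the highest of their group. The means were 6.63 ± 3.81 CPM after walking and 46.4 ± 14.2 CPM in uninjured muscle (SD, n = 4 each). The log2 fold change was -2.80 (SE 0.55, edgeR adjusted p = 0.0321). This call was lost without the low-count filter (edgeR adjusted p = 0.0548), and without walking library 1, 3 or 4 or uninjured library 1 or 4 (0.112, 0.115, 0.0683, 0.0986 and 0.136). The direction held in each, at -2.83 to -2.53 on the log2 scale.

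The same gene differed among the injured groups in 1 direct test. It ranged from 1.06 to 2.43 CPM after swimming, 1.51 to 8.81 CPM after contusion alone and 0 to 1.29 CPM after transection. Walking exceeded transection by 3.05 on the log2 scale (SE 0.62, edgeR adjusted p = 2.69e-03), with no overlap. Walking and contusion without exercise overlapped, and their log2 difference was 0.04 (SE 0.53, edgeR adjusted p = 1.00). All walking libraries lay above all swimming libraries, but the direct test missed the threshold (log2 difference 1.76, SE 0.57, edgeR adjusted p = 0.207).

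ENSRNOG00000022975 was the other gene named among those that fell. It stood at 3.09, 4.88, 3.77 and 4.84 CPM in walking libraries 1 to 4, against 21.3, 9.10, 15.3 and 15.6 CPM in uninjured libraries 1 to 4. The walking libraries were close together, while the uninjured libraries spread more widely and library 2 was the lowest of them. Means were 4.15 ± 0.871 CPM after walking and 15.3 ± 4.98 CPM in uninjured muscle (SD, n = 4 each). The log2 fold change was -1.88 (SE 0.29, edgeR adjusted p = 7.68e-03). It lost its call in a single alternative, without walking library 3, where the log2 fold change was -1.84 and the edgeR adjusted p was 0.0515. Levels ran from 1.72 to 5.63 CPM after swimming, 4.57 to 9.82 CPM after contusion alone and 2.66 to 3.31 CPM after transection. The walking libraries overlapped each of these groups, and the direct tests did not pass (edgeR adjusted p = 0.778, 1.00 and 0.358).

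**Figure D2:**
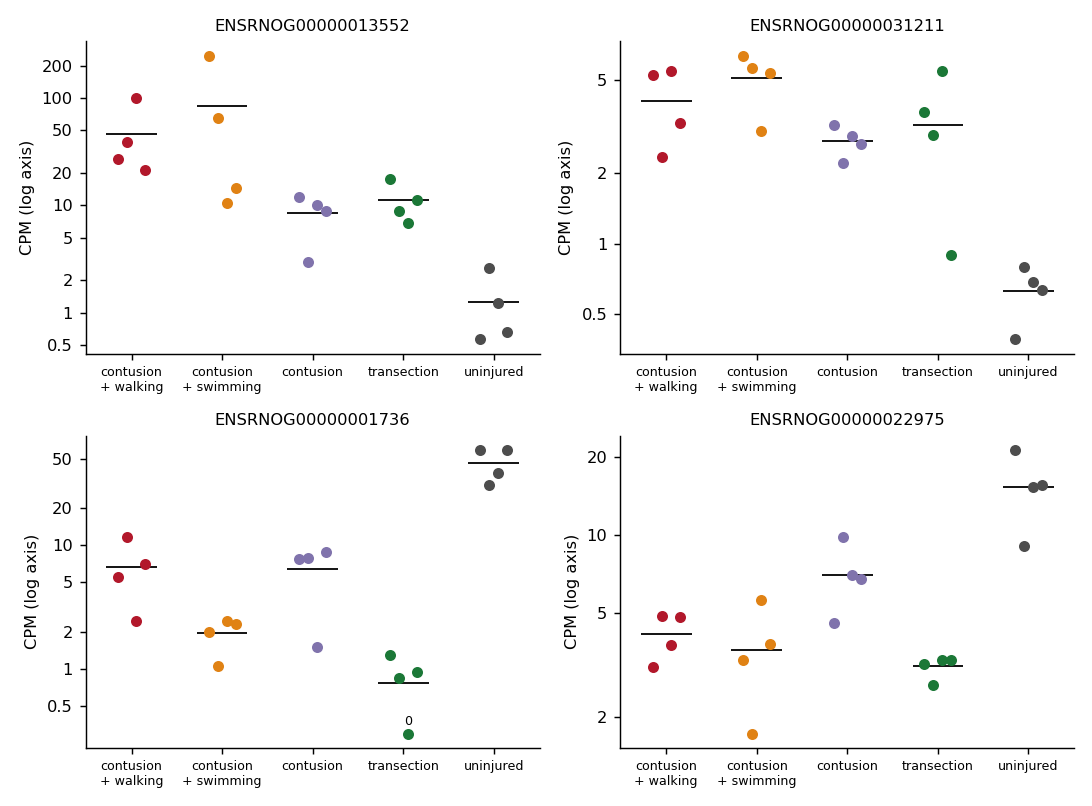
CPM (log axis) of the 4 named genes in each of the 20 libraries, with a line at the mean of each group of 4; a library at 0 is drawn at the foot of the panel and marked 0. In each panel the walking libraries (left) and the uninjured libraries (right) do not overlap, as the naming rule required. Uninjured levels were 0.390 to 2.60 CPM in the upper panels and 9.10 to 58.8 CPM in the lower ones.

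A further gene of very large difference just missed the threshold. ENSRNOG00000019745, the gene with the highest change after transection, stood at 162, 155, 292 and 502 CPM in walking libraries 1 to 4, against 5.88, 7.95, 2.40 and 3.69 CPM in uninjured libraries 1 to 4, and missed the threshold at 5.80 on the log2 scale (SE 1.25, edgeR adjusted p = 0.0504). Calls were made by DESeq2 (adjusted p = 7.15e-07), voom (5.36e-03), the 2 groups alone (edgeR, 0.0150), a mean of at least 1 CPM (0.0411), the replicate number as a block (0.0491), no robust shrinkage (0.0281), and without transection library 3 and swimming library 2 (6.82e-03). No call was made with median of ratios scaling (edgeR adjusted p = 0.0509), library totals as the only scaling (0.0548) or no low-count filter (0.0820). With any walking or uninjured library left out the edgeR adjusted p was 0.0671 to 0.217. In all, 21 genes had an edgeR adjusted p from 0.05 to 0.06.

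Large differences that did not pass were more frequent than those that did. A fold change of more than 2 in either direction was fitted for 447 genes, of which 37 were called. Of the remaining 410 genes, 263 were higher and 147 lower after walking. Their median standard error was 0.59 on the log2 scale, against 0.26 for the 37 called genes, and their median count level was 0.857 CPM against 23.8 CPM. At a given fold change the call depends on the standard error, so that contrast is partly built in. Of these 410 genes, 251 reached an unadjusted p under 0.05 and 187 had no overlap between the groups. The shares of all tested genes were 13.6% and 9.50%, but the 410 were picked by fold change, which favours both. At this depth the median standard error over all tested genes was 0.20.

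Calls also followed the number of counts behind a gene. CPM is not corrected for transcript length, so the bands used here group genes by counts and not by level per transcript. Of 1892 genes with a mean under 1 CPM over the 8 libraries, 0.106% were called, 0 higher and 2 lower, where the median standard error was 0.52. Between 1 and 10 CPM it was 0.315% of 4444 genes, 8 higher and 6 lower, with a median standard error of 0.253. Between 10 and 100 CPM it was 0.586% of 5971 genes, 12 higher and 23 lower, with a median standard error of 0.155. Over 100 CPM it was 1.01% of 1091 genes, 2 higher and 9 lower, with a median standard error of 0.157. The standard error was thus alike in the upper 2 bands, though the share called was not. From the lowest band to the highest, the median log2 fold change of all tested genes was 0.16, 0.07, -0.01 and -0.05. When libraries were scaled by their totals alone the division of calls was 10 higher and 47 lower, in place of 22 and 40, and 43 of the 62 genes were among them.

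The genes that rose were called on these libraries, so a raised median in each walking library follows from that choice. The values are given to show how single libraries lay. The median over the 22 genes, as log2 CPM above the mean of the uninjured libraries, was 1.26, 1.03, 1.27 and 0.92 in walking libraries 1 to 4. Uninjured libraries 1 to 4 lay at -0.17, 0.24, 0.15 and -0.12. Walking library 1 was the highest of its group in 9 of the 22 genes and walking library 3 in 8, where the same libraries were highest in 32.5% and 21.7% of all tested genes. Walking library 2 was the lowest in 10, against 21.7% of all tested genes. Among uninjured libraries, library 2 was the highest in 14 of the 22 genes, against 20.3% of all tested genes.

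For the 40 genes that fell the walking libraries lay below the uninjured ones, again by the choice of genes, and the uninjured libraries were divided. The median over the 40 genes was -1.13, -0.88, -1.15 and -0.97 in walking libraries 1 to 4. It was 0.14, -0.25, -0.19 and 0.28 in uninjured libraries 1 to 4. Uninjured library 4 was the highest of its group in 23 of the 40 genes and the lowest in 0, where it was highest in 26.5% and lowest in 28.4% of all tested genes. Uninjured library 2 was the lowest in 22, against 18.9% of all tested genes. Uninjured libraries 1 and 4 were together the highest pair in 25 of the 40, or 62.5%, against 23.0% of all tested genes. Among the 22 that rose, the same 2 libraries were the highest pair in 0 and had the lowest medians, -0.17 and -0.12. Those 22 genes were called on the same libraries, so they cannot show whether the division reaches beyond called genes. Uninjured libraries 1 and 4 also lay farthest from the walking libraries on the first principal component, at -28.5 and -44.1, against -5.16 and -8.72 for uninjured libraries 2 and 3. That component was taken over all tested genes, the called ones included. Within the 40 genes the median SD of log2 CPM was 0.22 among walking libraries and 0.33 among uninjured libraries. Over all tested genes these values were 0.26 and 0.24. What sets uninjured libraries 1 and 4 apart in these genes was not tested, and the count of calls without each of them is given above.

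**Figure D3:**
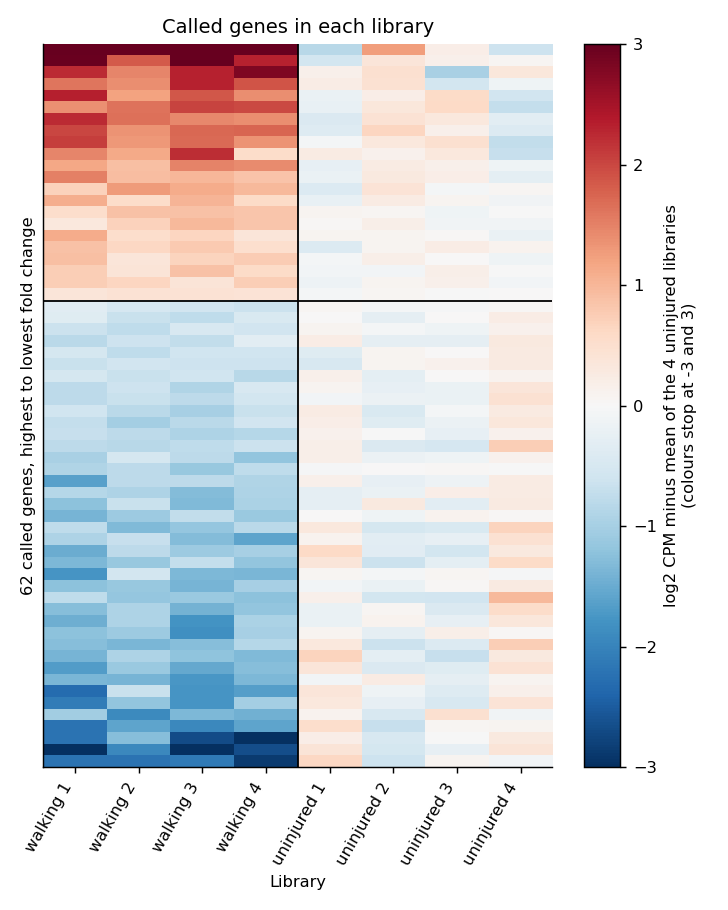
Each row is 1 of the 62 called genes, from highest to lowest fold change, and each column a library, walking left and uninjured right; colour is log2 CPM minus the mean of the uninjured libraries. All 4 walking columns are shifted in the same direction, which follows from calling the genes on these libraries. In 25 of the 40 lower genes uninjured libraries 1 and 4 are the highest pair of their group.

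The 62 genes were set beside their values in the other injured groups. These comparisons share the uninjured libraries that served to choose the genes, so they are given side by side and not as tests. The 22 genes that rose after walking had median log2 differences from uninjured muscle of 1.17 after walking, 1.15 after swimming, 1.05 after contusion alone and 1.41 after transection. The 40 genes that fell had medians of -1.11 after walking, -1.23 after swimming, -0.79 after contusion alone and -1.13 after transection. The medians of all tested genes were 0.02, 0.04, 0.01 and 0.02 in the same comparisons. Against uninjured muscle, 21 of the 22 genes were called higher after swimming and 22 after transection, where the shares of all tested genes were 9.99% and 13.4%. Of the 40 genes, 38 were called lower after swimming and 38 after transection, where those shares were 10.1% and 14.7%. In either direction 20.0% of tested genes were called after swimming and 28.1% after transection, and 0% after contusion alone, where 0 of the 62 genes were called. After contusion alone 22 of the 22 genes and 39 of the 40 had an unadjusted p under 0.05, against 9.80% of all tested genes, and the smallest edgeR adjusted p among the 62 was 0.0521. By library, the median of the 22 genes ran from 0.92 to 1.27 after walking, 0.99 to 1.38 after swimming, 0.81 to 1.10 after contusion alone and 1.37 to 1.59 after transection. The median of the 40 genes ran from -1.15 to -0.88 after walking, -1.42 to -1.05 after swimming, -0.98 to -0.63 after contusion alone and -1.24 to -1.07 after transection.

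**Figure D4:**
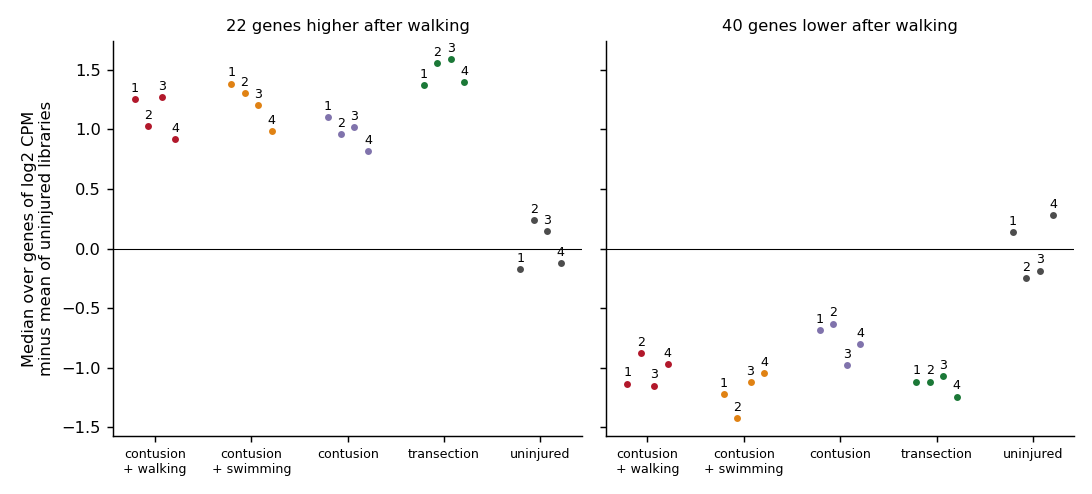
For every library (numbered point) of the 5 groups, the median over the 22 higher genes (left) or the 40 lower genes (right) of log2 CPM minus the mean of the uninjured libraries. Walking libraries lie at 0.92 to 1.27 and -1.15 to -0.88. They overlap contusion without exercise and swimming in both panels, and transection in the right panel only. The genes were chosen on the walking and uninjured libraries.

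Whether the walking group differed from the other injured groups was read from direct tests, which set the walking libraries against another injured group. The uninjured libraries were not compared in these tests, but they entered the shared fit, its gene filter and its estimates of spread. Walking against contusion without exercise gave 0 called genes, 0% of 13398, with edgeR, and 0 with DESeq2 and voom. An unadjusted p under 0.05 was found with edgeR for 426 genes, 3.18%. Of the 22 genes that had risen, 2 had an unadjusted p under 0.05, and their median log2 difference was 0.22, from -0.18 to 2.45. Of the 40 that had fallen, 11 had one, with a median of -0.21, from -2.44 to 0.11. None of the 62 passed, at an edgeR adjusted p of 1.00 for each. Since the walking libraries chose these genes, the small medians away from contusion carry that choice. Contusion alone against uninjured, at the same labelled time, likewise gave 0 called genes (0%) and 1313 at an unadjusted p under 0.05 (9.80%), so a call after walking is not by itself a difference between walking and contusion alone.

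Walking and transection differed at 2678 genes, 20.0% of those tested, 1477 higher (11.0%) and 1201 lower (8.96%) after walking. Under scaling by library totals alone, 3366 genes were higher after walking and 223 lower, and the median log2 difference of all tested genes was 0.31, where it was 0.00 in the reported fit. Labelled times differ by group here as well, at 13.5 weeks after walking and 8.5 weeks after transection. Of the 22 genes that rose against uninjured muscle, 10 were lower after walking than after transection and 0 were higher. Their median log2 difference was -0.50. Of the 40 genes that fell, 8 were higher after walking and 4 were lower than after transection, with a median of 0.09. ENSRNOG00000001736, described above, was among the 8.

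The exercise groups were both taken at 13.5 weeks. A single gene of 13398, 0.00746%, passed the direct edgeR test of walking against swimming, where DESeq2 called 140 genes and voom 315. An unadjusted p under 0.05 was found with edgeR for 2052 genes, 15.3%. The gene that passed after adjustment was ENSRNOG00000023227. It stood at 2053, 3771, 3902 and 4341 CPM in walking libraries 1 to 4, against 648, 1148, 1296 and 1269 CPM in swimming libraries 1 to 4. Walking was higher by 1.69 on the log2 scale (SE 0.24, edgeR adjusted p = 8.04e-03). It was not among the 62, at 3517 ± 1006 CPM after walking and 3437 ± 885 CPM in uninjured muscle (SD, n = 4 each; log2 fold change 0.03, edgeR adjusted p = 0.968). The call was lost without walking library 4 (0.0542) and with the 2 groups alone (0.341), and without walking library 1 edgeR called 298 genes. None of the 62 genes passed this test, though 2 of the 22 that rose and 8 of the 40 that fell had an unadjusted p under 0.05. The 22 that rose had a median log2 difference of -0.28 and the 40 that fell one of 0.20, walking minus swimming.

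Whether the same genes were called again was counted for each alternative fit. Of the 62 genes, 58 were also called by both DESeq2 and voom, 22 that rose and 36 that fell. All 62 were called without transection library 3 and swimming library 2, and 44 with the walking and uninjured libraries alone. Leaving out walking library 1, 2, 3 or 4 kept 10, 35, 5 and 23 of them, and leaving out uninjured library 1, 2, 3 or 4 kept 13, 49, 44 and 6. Over these 8 fits 4 genes kept their call each time, 2 that rose and 2 that fell, and these 4 were also called in all 10 other fits at the same threshold. ENSRNOG00000031211 was among them. A further 4 genes lost their call in each of the 8 fits.

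**Figure D5:**
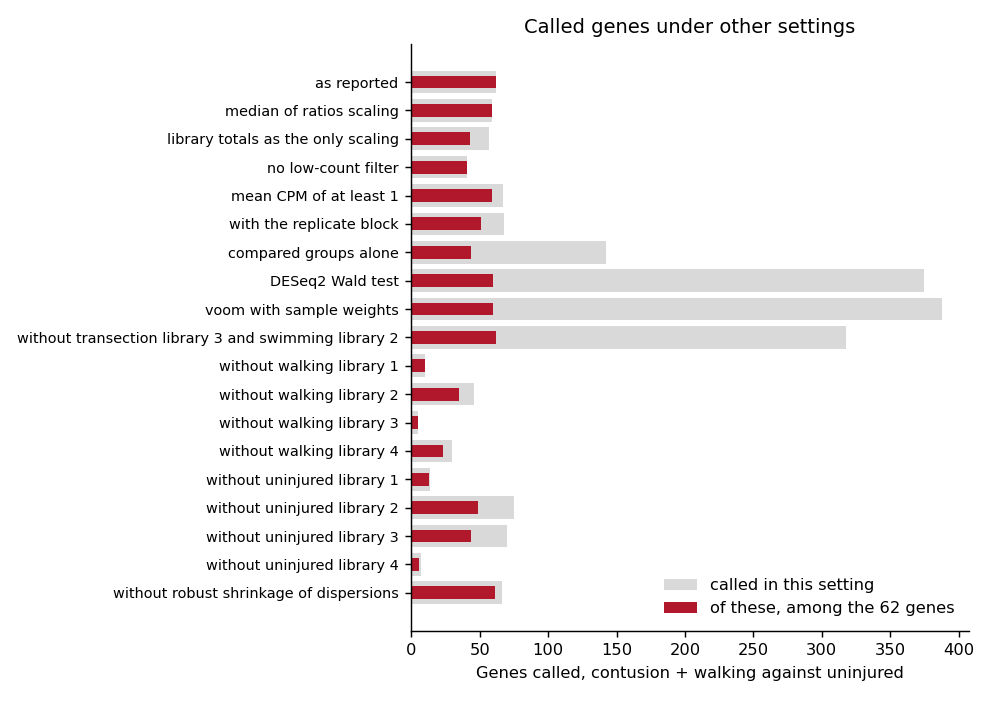
Number of genes called for walking against uninjured muscle (grey bars) in the reported fit and in each alternative, and how many of these are among the 62 (red bars). Grey bars run from 5 without walking library 3 to 388 with voom, and red bars from 5 to 62.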

How the data were processed

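Soleus poly-A RNA was sequenced from stranded TruSeq libraries, per the labels' protocols. The authors deposited raw counts of reads for each Ensembl gene. Per the submitters' processing notes, FastQC 0.10.1, HTSeq and the rn6 build were used. The aligner, annotation and strand setting are not given in the sources used here. How reads of overlapping genes and near-identical copies were counted is therefore not known. Of 24613 genes, 18618 had a count, and 0 rows named no gene. The design text has muscle taken from each animal, but no label ties a library to an animal, so p-values measure the spread between libraries. Within the walking and uninjured groups, pairs of libraries differed by 26.5 to 101 chi-square units per degree of freedom, so none was taken for a copy.

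All 20 libraries entered 1 fit of edgeR 4.0.16 in R 4.3.3 (robust quasi-likelihood F test, a mean per group, 15 residual degrees of freedom, trimmed mean of M values). filterByExpr at a minimum count of 10 left 13398 genes, over which p was adjusted (threshold 0.05). Each SE is the log2 fold change over the root of its F statistic, without sign, and log2 CPM used a prior count of 2. Library measures were compared with exact permutation tests (scipy 1.17.1). Alternatives were other scaling and filters, the replicate block, the compared groups alone, DESeq2 1.42.0, limma 3.58.1 (voom, weighted samples), and libraries left out; no robust shrinkage, an adjusted p below 0.1 and thinning were chosen after seeing the data. The naming rule took called genes without overlap whose mean reached 1 CPM or more, the 12 highest and lowest where symbols exist and otherwise 2 and 2. The 2 further identifiers were chosen after their values were seen. The 25 gene lists and the cell type markers need symbols and could not be applied. Members and lists were chosen with earlier results of these data known. Depth limits genes of low count most. Figures were drawn with matplotlib 3.10.9.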

Additional observations from a re-analysis of the deposited data

Results flagged for a closer look

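Among 54 groups of 4 values examined, 7 had an extreme library by a gap test. A rate of 1 in 20 would give 2.7, if the values were normal and the groups independent. Many groups come from the same libraries, so the 2.7 is only a rough guide. Walking library 4 held 36604027 counts, the next highest 23665744. The 200 most abundant genes held 57.4% of counts in uninjured library 1, the next lowest 58.9%. In uninjured library 4, 15160 genes would keep a count after thinning, the next lowest 15393. Uninjured library 4 had the lowest scaling factor of its group, 0.982 beside 1.08. ENSRNOG00000001736 stood at 1.51 CPM in contusion library 3, the next lowest 7.65 CPM. ENSRNOG00000019745 stood at 8209 CPM in swimming library 2, the next highest 494 CPM. ENSRNOG00000022975 stood at 2.66 CPM in transection library 2, the next lowest 3.20 CPM.

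In direct tests with edgeR, walking differed from transection at 2678 genes and from swimming at 1 gene, ENSRNOG00000023227.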

How the results depend on the processing

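For walking against uninjured muscle, 62 genes were called as reported. The count was 41 without the low-count filter, 142 with the 2 groups alone, 375 with DESeq2, 388 with voom, 318 without transection library 3 and swimming library 2, and 208 at an adjusted p below 0.1. It ran from 5 to 75 when 1 of the 8 walking and uninjured libraries was left out. For walking against swimming, 1 gene was called as reported, 0 with the 2 groups alone, 140 with DESeq2 and 315 with voom, and 0 to 298 with 1 of the 8 walking and swimming libraries left out. The cause of these shifts was not tested. The counts stayed at 0 for walking against contusion in the 18 alternatives run, and lay within 1.5 times of 2678 for walking against transection in all 18. With the replicate block 68 genes were called for walking against uninjured, 51 of them among the 62. Same-numbered walking and uninjured libraries correlated at -0.28 to 0.26 in their deviations, so the numbers were not taken as a pairing. The fitted direction of each named gene held in all its alternatives. Genes with a count differed by -222 (walking minus uninjured) with counts scaled to the smallest library, by 67 at a minimum of 5 counts and by 33.1 after thinning; scaling in proportion drops single counts in deeper libraries, so thinned values are used above. The number of libraries and low counts limit what could be detected.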
